A study of Mus musculus with 8 samples.

Results

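Cholangiocyte marker genes are genes by which the epithelial cells of the bile ducts are told apart from the other cells of the liver. A list of 28 of them was read out of the deposited table by gene name, and all 28 were found among its 27110 genes. They were followed in total RNA of bulk liver tissue from 8 mice labelled week 7, whose cell type label names hepatocytes and cholangiocytes. The 4 LKO libraries, replicates 3, 4, 12 and 13, came from livers with a liver-restricted deletion of Pkd1l1, a polycystin-family gene studied as a candidate in biliary atresia, and all 4 were labelled female. The 4 Fl/Fl libraries are their controls, of which replicates 5, 7 and 9 were labelled female and replicate 10 male. All 8 livers carry the treatment label NT, and the sources used here name neither the Cre line nor the strain. The question is whether bile duct genes differ in the bulk RNA of livers labelled as lacking Pkd1l1.

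Cholangiocytes line the ducts that carry bile out of the liver. They secrete chloride, bicarbonate and water into it when the hormone secretin binds its receptor, and each carries a primary cilium that reaches into the bile. They make up a small part of the liver, where hepatocytes supply most of the RNA, so a marker measured in bulk liver holds both its duct signal and whatever other cells express of it. Sox9 and Sox4 are transcription factors of bile duct formation in mice, and keratins 7 and 19 are the cytoskeletal proteins by which ducts are usually stained.

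No member was called different between genotypes by the test used here. Of the 28 members, 27 had enough reads to test. None of the 27 passed an adjusted p of 0.05 for LKO against female Fl/Fl in edgeR's quasi-likelihood test, where 1.41% of all 16420 tested genes passed, 1.02% higher and 0.396% lower in LKO. At an adjusted p of 0.10 Atp1b1 passed, where 3.23% of all genes did. In bulk liver, fewer cells of a type and less RNA per cell cannot be told apart, so none of these values is a count of cholangiocytes. At an unadjusted p under 0.05 there were 4 of 27, where the share over all tested genes was 16.1%. With DESeq2 the count was 2, Atp1b1 and Cdh1, where 5.39% of all genes passed, and with limma voom it was 0. The values of the LKO and female Fl/Fl libraries did not overlap in 5 members, Atp1b1, Cdh1, Elf3, Muc1 and Slc4a2, where this held for 15.1% of all tested genes. Of the 27 log2 fold changes, 16 were negative, where 50.5% of all tested genes were, and their median was -0.07 beside -0.0032 over all tested genes.

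A fold change is the log2 of the LKO level over that of the 3 female controls, with its standard error, and p-values are Benjamini-Hochberg adjusted over all tested genes unless called unadjusted. The male library enters the fit under its own sex term and carries no weight in the fold change. CPM values are reads relative to the TMM-scaled library total, given in the order LKO replicates 3, 4, 12 and 13, then Fl/Fl replicates 5, 7 and 9, then the male replicate 10. Means carry their SD over 4 LKO and 3 female Fl/Fl livers. The labels do not say whether litters or days of preparation were shared, so a p-value reflects only how these particular livers spread.

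The libraries held 71491723 to 76622375 counted reads, and 3 reads in a library were worth 0.0385 to 0.0428 CPM. Hepatocyte markers, 14 of 15 of which were found in the table, summed to 145550 to 161990 CPM in LKO, to 150580 to 162520 CPM in female Fl/Fl and to 108130 CPM in the male library. Of reads from Pkd1l1 itself there were 2 in LKO in all, 2 in the female controls and 0 in the male control, too few to say anything of the genotype. Alb, the most abundant hepatocyte marker, averaged 99615 ± 4502 CPM in LKO and 105770 ± 3589 CPM in female Fl/Fl, against 55809 CPM in the male control. The libraries also differed in clock genes within each genotype. Dbp, a clock output gene, stood at 0.606 and 1.64 CPM in LKO 3 and 4 and at 54.4 and 42.2 CPM in LKO 12 and 13. Fl/Fl had 2.46 and 3.5 CPM in replicates 5 and 7, 26.9 CPM in replicate 9 and 46.1 CPM in the male replicate. Fos, an immediate early gene, stood at 4.87 to 12.7 CPM in LKO, and at 298, 264, 30.7 and 4.78 CPM in Fl/Fl 5, 7, 9 and 10. Fl/Fl 5 and 7 therefore stand apart, and values without them are given beside the results they move most.

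Promoter sequence is shown for 5 members, to set letters beside the values that follow. Atp1b1, Elf3 and Muc1 were the 3 members of smallest p for which the RefSeq promoter table (GRCm38.p6) held an entry, and Cldn3 and Cldn4 are a neighbouring pair with very different levels. Each stretch runs 5′ to 3′ on the strand of its gene and ends before the gene's start in both RefSeq and the deposited table. Capitals mark GC boxes, the letters GGGCGG or their reverse complement CCGCCC, and the TATA box TATAAA. The stretches are chr1:164458356-164458605 on the minus strand for Atp1b1, chr1:135258569-135258722 on the minus strand for Elf3, chr3:89228806-89229055 on the plus strand for Muc1, chr5:134985964-134986213 on the plus strand for Cldn3 and chr5:134946935-134947184 on the minus strand for Cldn4.
Atp1b1: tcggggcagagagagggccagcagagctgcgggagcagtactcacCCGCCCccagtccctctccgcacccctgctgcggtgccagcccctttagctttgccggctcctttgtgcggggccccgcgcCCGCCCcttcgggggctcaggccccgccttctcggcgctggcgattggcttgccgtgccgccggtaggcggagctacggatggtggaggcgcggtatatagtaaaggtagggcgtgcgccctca
Elf3: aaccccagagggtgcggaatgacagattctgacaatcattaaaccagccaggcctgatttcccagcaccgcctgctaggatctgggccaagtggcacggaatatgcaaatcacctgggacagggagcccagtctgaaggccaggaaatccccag
Muc1: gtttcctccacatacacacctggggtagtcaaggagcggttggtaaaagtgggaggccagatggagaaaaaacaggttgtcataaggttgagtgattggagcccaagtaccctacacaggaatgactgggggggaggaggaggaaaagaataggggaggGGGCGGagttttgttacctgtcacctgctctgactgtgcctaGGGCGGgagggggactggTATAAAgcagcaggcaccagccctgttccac
Cldn3: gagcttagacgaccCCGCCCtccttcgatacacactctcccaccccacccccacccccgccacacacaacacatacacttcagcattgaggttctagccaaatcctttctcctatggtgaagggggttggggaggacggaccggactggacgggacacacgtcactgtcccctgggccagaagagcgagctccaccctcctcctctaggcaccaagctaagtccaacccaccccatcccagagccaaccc
Cldn4: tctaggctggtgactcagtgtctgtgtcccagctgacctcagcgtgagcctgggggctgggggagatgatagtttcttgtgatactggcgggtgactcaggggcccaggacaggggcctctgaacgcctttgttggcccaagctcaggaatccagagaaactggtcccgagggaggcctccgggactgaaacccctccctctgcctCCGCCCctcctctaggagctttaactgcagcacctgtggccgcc
Entries were held for 19 of the 28 members. In windows of 250 bases before to 50 after the start, searched on both strands, a GC box was found in 11 of 19 members and in 35.7% of 32851 windows of all genes. For each member only the window nearest its deposited start was used. The windows of all genes can hold several per gene, so the shares differ in unit. The RefSeq starts used for Krt7 and Slc4a2 lay 1360 and 1395 bases from their deposited starts. The member windows were also richer in G and C, with a median of 59.0% beside 52.7% for all windows. TATAAA was found in 3 of 19 and in 13.6%, and the ETS factor core CGGAAG, which can overlap a GC box, in 3 of 19 and in 16.9%. Of the printed stretches, that of Atp1b1 holds 2 GC boxes, that of Muc1 holds 2 and a TATA box, those of Cldn3 and Cldn4 hold 1 each and that of Elf3 holds none. A match is a description of the letters and not a bound site.

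Levels of different members are compared per length, in the FPKM values the authors deposited. They fell into 2 ranges. The bound was a mean of 20 CPM over the 8 libraries, placed after the levels were seen, and the ranges do not meet in FPKM either. Tm4sf4, Cldn3, Aqp1, Atp1b1, Spp1, Wwc1, Cdh1 and Slc4a2 averaged 67.6, 56.9, 55.8, 39.0, 25.5, 20.1, 17.4 and 3.94 FPKM over the 8 libraries. The other 20 members averaged 0.0413 FPKM, for Cftr, to 1.28 FPKM, for Prom1. Krt7 averaged 0.121 FPKM, above 9.91% of all tested genes, and Krt19 averaged 1.07 FPKM, above 38.6% of them, while Tm4sf4 lay above 95.9%. The 8 members of the upper range had standard errors of 0.09 to 0.18 on the log2 scale. For the 19 tested members of the lower range they were 0.16 to 0.74. In all, 19 of the 27 intervals of 95% lay within a change of 1 on the log2 scale in either direction.

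**Figure D1:**
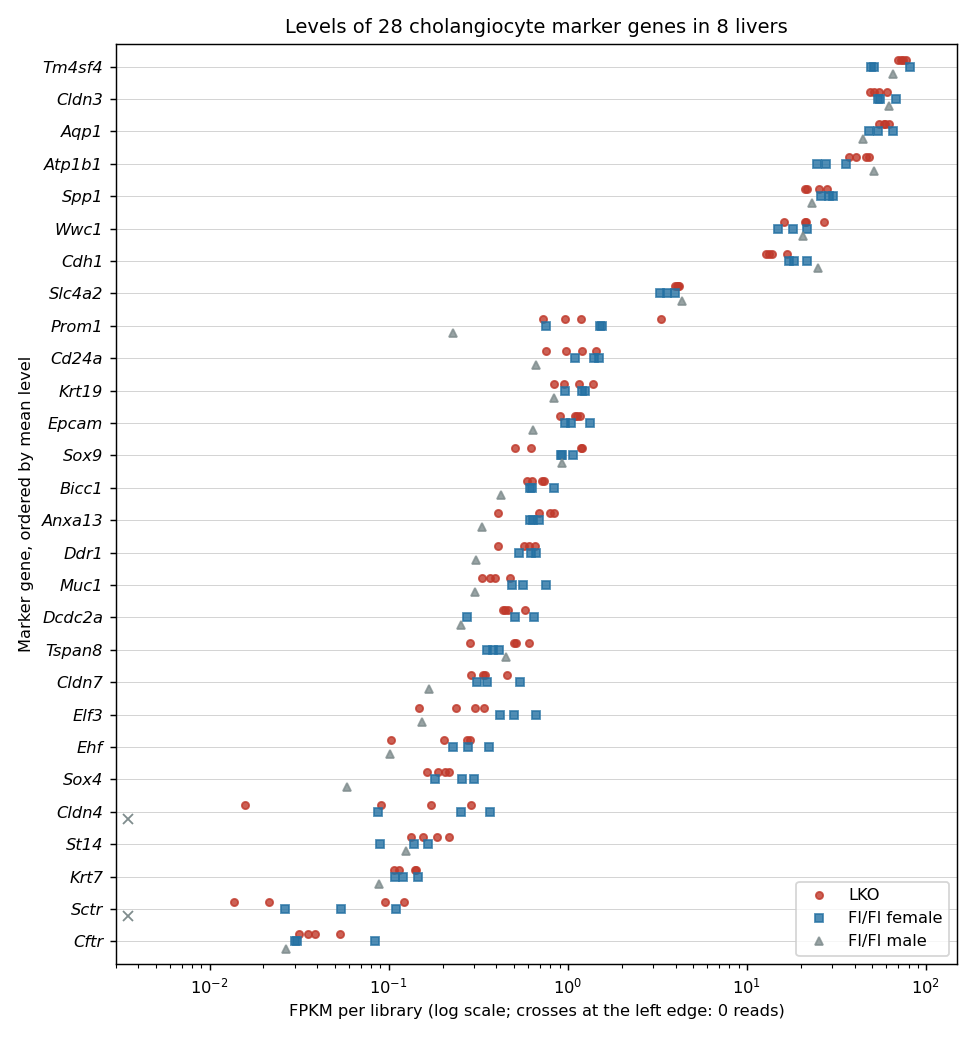
FPKM of the 28 markers in each of 8 livers on a log axis, with LKO as circles, female Fl/Fl as squares, male Fl/Fl as triangles and libraries with 0 reads as crosses at the left edge. The 8 markers at the top average 3.94 to 67.6 FPKM and the other 20 average 0.0413 to 1.28 FPKM.

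Among members of the cytoskeleton and the cell surface, the keratins and Epcam stood at nearly the same level in both genotypes. Krt7 had 0.724, 0.953, 0.9754 and 0.776 CPM in LKO, 0.988, 0.744 and 0.809 CPM in female Fl/Fl and 0.599 CPM in the male library. That is 55 to 73 reads per LKO library and 58 to 74 per female Fl/Fl library. Its log2 fold change was 0.02 ± 0.27 (95% interval -0.57 to 0.61, adjusted p = 0.983). The coefficient of variation over the LKO libraries was 14.7%, and counting error alone at the mean read count gives 12.8%.

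Krt19 had 2.05, 1.70, 2.49 and 1.499 CPM in LKO, 2.23, 2.14 and 1.72 CPM in female Fl/Fl and 1.48 CPM in the male library. The genotypes overlapped over nearly their whole range (log2 -0.07 ± 0.23, 95% interval -0.57 to 0.43, adjusted p = 0.919). Epcam, an adhesion glycoprotein of simple epithelia, had 2.16, 2.31, 2.22 and 1.78 CPM in LKO, 2.06, 2.62 and 1.88 CPM in female Fl/Fl and 1.25 CPM in the male library (log2 -0.05 ± 0.20, 95% interval -0.49 to 0.40, adjusted p = 0.942). Summed, Krt7, Krt19 and Epcam stood at 4.91 ± 0.667 CPM in LKO, against 5.06 ± 0.575 CPM in female Fl/Fl. As a fold, the interval of Krt19 ran from 0.671 to 1.35.

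Prom1, the membrane glycoprotein CD133 of progenitor and duct cells, varied more than the other surface markers. It had 5.005, 23.0, 8.204 and 6.68 CPM in LKO, 5.25, 10.6 and 10.6 CPM in female Fl/Fl and 1.57 CPM in the male library. LKO 4 stood above every other library, and the male library below every other. The coefficient of variation in LKO was 77.3% where counting error gives 3.88%, and the log2 fold change was 0.28 ± 0.60 (adjusted p = 0.877). Without LKO 4 it turned to -0.41 (adjusted p = 0.645).

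Muc1, a transmembrane mucin of the apical surface, had 0.751, 0.8287, 0.895 and 1.08 CPM in LKO, 1.71, 1.27 and 1.10 CPM in female Fl/Fl and 0.684 CPM in the male library. LKO and female Fl/Fl did not overlap, though LKO 13 and Fl/Fl 9 nearly met, and the male Fl/Fl value lay below all 4 LKO values (log2 -0.61 ± 0.26, unadjusted p = 0.0397, adjusted p = 0.283). Without Fl/Fl 5 and 7 the fold change of Muc1 was -0.31 (adjusted p = 0.827). These values rest on 57 to 82 reads per LKO library and 84 to 128 per female Fl/Fl library. Tm4sf4, a membrane protein of the tetraspanin-like L6 family, had 100, 104, 112 and 107 CPM in LKO, 74.1, 71.7 and 116 CPM in female Fl/Fl and 93.9 CPM in the male library. The LKO libraries lay close together, while Fl/Fl 9 stood apart from Fl/Fl 5 and 7 (log2 0.28 ± 0.16, adjusted p = 0.424). Without Fl/Fl 9 Tm4sf4 passed (log2 0.53, adjusted p = 0.00892), as did 4.34% of all genes, and without Fl/Fl 5 and 7 its fold change was -0.15 (adjusted p = 0.732). Cd24a, a small glycoprotein also found on immature B cells, averaged 2.72 ± 0.737 CPM in LKO and 3.31 ± 0.534 CPM in female Fl/Fl. The tetraspanin Tspan8 averaged 0.782 ± 0.224 CPM in LKO and 0.627 ± 0.0528 CPM in female Fl/Fl. Neither passed (adjusted p = 0.605 and 0.679).

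Of the 6 junction and adhesion genes, 5 had negative fold changes and none passed. Cdh1, the epithelial cadherin of adherens junctions, which periportal hepatocytes also express (chromosome 8, 106603351 to 106670246, mm10), had 60.5, 58.5, 74.7 and 56.5 CPM in LKO, 80.5, 76.2 and 94.8 CPM in female Fl/Fl and 110 CPM in the male library. All 4 LKO values lay below all 4 Fl/Fl values, of which the male was the highest. The mean was 62.6 ± 8.24 CPM in LKO, against 83.9 ± 9.73 CPM in female Fl/Fl (log2 -0.42 ± 0.12, 95% interval -0.68 to -0.17, adjusted p = 0.109). Within the libraries with Dbp below 20 CPM, the mean log2 difference of LKO 3 and 4 from Fl/Fl 5 and 7 was -0.40, and within those above 20 CPM that of LKO 12 and 13 from Fl/Fl 9 was -0.54. With a term for Dbp level the adjusted p was 0.0514, with DESeq2 0.0368, and with all 27110 listed genes in the test 0.0353, where 1.7% of them passed. With 1 library left out, the log2 fold change of Cdh1 ranged from -0.52 to -0.33. Its adjusted p in edgeR's test then ranged from 0.0585 to 0.296. The authors' deposited table, whose comparison gives Cdh1 a log2 fold change of -0.53, lists an adjusted p of 0.0766, the smallest of the 28 members there.

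The claudins are the sealing proteins of tight junctions. Cldn3 averaged 65.5 ± 6.39 CPM in LKO and 71.7 ± 8.62 CPM in female Fl/Fl (log2 -0.13 ± 0.11, 95% interval -0.37 to 0.11, adjusted p = 0.602). Cldn4 lies on chromosome 5 with its start 39280 bases from that of Cldn3 and on the other strand. It had 0.5005, 0.0276, 0.160 and 0.302 CPM in LKO, 0.641, 0.154 and 0.444 CPM in female Fl/Fl and no read in the male library. Per length, Cldn3 stood 148 to 3093 times above Cldn4 in the 7 libraries with Cldn4 reads. The Cldn4 values come from 2 to 48 reads per library (log2 -0.73 ± 0.74, 95% interval -2.36 to 0.91, adjusted p = 0.686). Cldn7 averaged 0.670 ± 0.134 CPM in LKO and 0.754 ± 0.221 CPM in female Fl/Fl (adjusted p = 0.848).

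Ddr1, a receptor kinase that binds collagen, averaged 2.57 ± 0.490 CPM in LKO and 2.79 ± 0.307 CPM in female Fl/Fl (adjusted p = 0.834). St14, the membrane-bound serine protease matriptase, was the 1 junction and adhesion gene with a positive fold change. It had 1.59, 0.981, 1.38 and 1.144 CPM in LKO, 1.014, 1.22 and 0.652 CPM in female Fl/Fl and 0.913 CPM in the male library. The genotypes overlapped (log2 0.40 ± 0.29, adjusted p = 0.547), and without Fl/Fl 5 and 7 the fold change was 0.96 (adjusted p = 0.475).

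All 4 transcription factors had negative fold changes, with a median log2 of -0.38, and none passed. Elf3, an ETS factor of epithelial cells (chromosome 1, 135253575 to 135258568, mm10), had the largest fold change of the 27 members. It had 0.724, 0.649, 0.508 and 0.316 CPM in LKO, 1.41, 0.898 and 1.07 CPM in female Fl/Fl and 0.328 CPM in the male library. Each LKO value lay below each female Fl/Fl value, and the male Fl/Fl value lay at the low end of LKO. The mean was 0.549 ± 0.180 CPM in LKO, against 1.13 ± 0.263 CPM in female Fl/Fl (log2 -1.04 ± 0.34, 95% interval -1.78 to -0.29, unadjusted p = 0.011, adjusted p = 0.169). The gene Gm26642 overlaps Elf3 on the other strand with 278 reads in all beside 445 of Elf3, and no source says that reads were counted by strand, so those of the pair cannot be told apart.

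Sox9 had 4.71, 4.79, 2.04 and 2.47 CPM in LKO, 4.27, 3.73 and 3.65 CPM in female Fl/Fl and 3.68 CPM in the male library. The LKO libraries lay on both sides of every Fl/Fl library, with LKO 3 and 4, of low Dbp, above and LKO 12 and 13, of high Dbp, below. The log2 fold change was -0.15 ± 0.29 (95% interval -0.81 to 0.51, adjusted p = 0.860), and within the Dbp sets the mean log2 differences were 0.25 and -0.68. The part of clock state in the spread of Sox9 was not tested. Sox4 had 0.869, 0.760, 0.962 and 0.999 CPM in LKO, 0.841, 1.19 and 1.37 CPM in female Fl/Fl and 0.271 CPM in the male library (adjusted p = 0.587). The ETS factor Ehf, which averaged 1.16 ± 0.450 CPM in LKO and 1.55 ± 0.366 CPM in female Fl/Fl, did not pass either (adjusted p = 0.598).

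**Figure D2:**
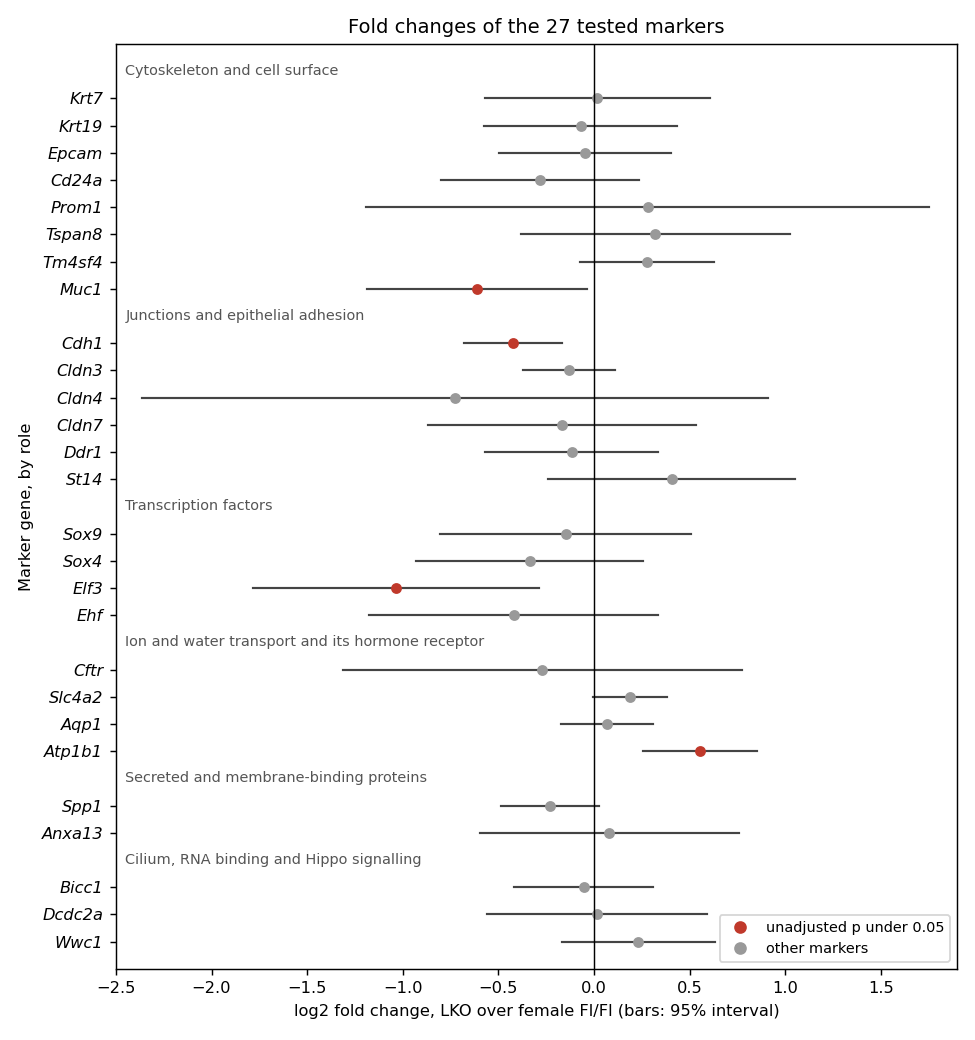
Log2 fold change of LKO over female Fl/Fl for the 27 tested markers, grouped by role, with 95% intervals as bars and the 4 markers of unadjusted p under 0.05 in red. Elf3 lies furthest from 0 at -1.04, and the intervals of Cldn4 and Prom1 are the widest.

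Of the genes of ion and water transport, Atp1b1 had the smallest p of all members. It encodes the beta subunit of the sodium pump, which sets the ion gradients that secretion runs on, and hepatocytes express it too (chromosome 1, 164437109 to 164458355, mm10). It had 137, 143, 112 and 121 CPM in LKO, 73.6, 82.6 and 106 CPM in female Fl/Fl and 152 CPM in the male library. Each LKO value lay above each female Fl/Fl value, but the male Fl/Fl value was the highest of all 8. The mean was 128 ± 14.4 CPM in LKO, against 87.4 ± 16.7 CPM in female Fl/Fl (log2 0.55 ± 0.13, 95% interval 0.26 to 0.85, adjusted p = 0.0759). The gene Nme7 overlaps it on the other strand with 3412 reads in all beside 69029 of Atp1b1.

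The result for Atp1b1 turned on the controls. LKO 3 and 4 stood well above Fl/Fl 5 and 7 (mean log2 difference 0.84), while LKO 12 and 13 stood close to Fl/Fl 9 (0.13). Atp1b1 passed without Fl/Fl 9 (log2 0.71, adjusted p = 0.00897), with DESeq2 (adjusted p = 0.0109) and with all 27110 listed genes in the test (adjusted p = 0.0128). Without Fl/Fl 5 and 7, where Fl/Fl 9 is the lone female control and is assumed to vary like the other libraries, the fold change was 0.27 (adjusted p = 0.603). With no sex term, so that the male counts as a plain control, it was 0.31 (adjusted p = 0.734), and 0.00609% of all genes passed. The authors' deposited table gives 0.30 with an adjusted p of 0.748, and there an adjusted p under 0.05 is listed for 0.409% of all genes and for none of the 28 members.

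**Figure D3:**
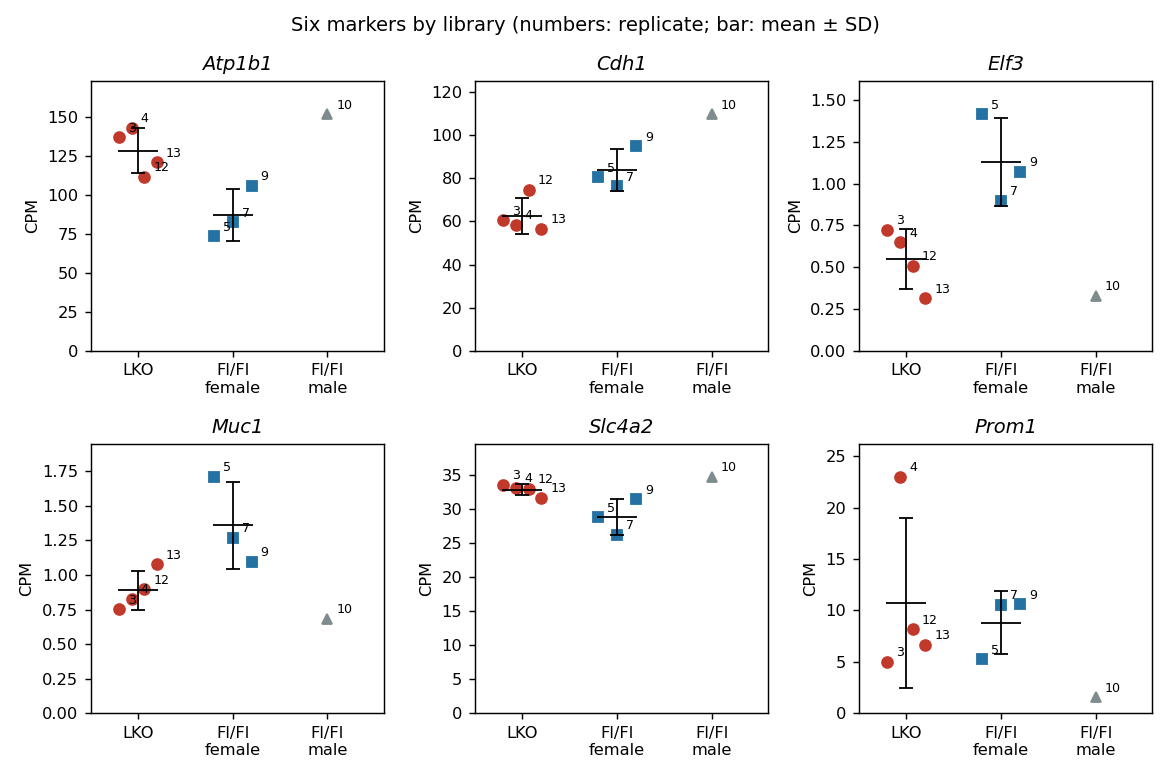
CPM by library for the 5 markers whose LKO and female Fl/Fl values did not overlap and for Prom1, with the replicate number beside each point and mean ± SD as bars, in LKO, female Fl/Fl and the male Fl/Fl library. The male Fl/Fl value lies above every LKO value for Atp1b1, Cdh1 and Slc4a2, and LKO 4 stands at 23.0 CPM for Prom1.

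Slc4a2, the exchanger that puts bicarbonate into bile in return for chloride, had 33.6, 33.2, 33.0 and 31.7 CPM in LKO, 28.8, 26.3 and 31.5 CPM in female Fl/Fl and 34.8 CPM in the male library. LKO 13 and Fl/Fl 9 nearly met (log2 0.19 ± 0.09, 95% interval -0.01 to 0.38, unadjusted p = 0.0569, adjusted p = 0.326). The gene Fastk overlaps it on the other strand with 22360 reads in all beside 18884 of Slc4a2. Aqp1, a water channel that endothelium also carries, averaged 148 ± 8.33 CPM in LKO and 141 ± 21.8 CPM in female Fl/Fl (log2 0.07 ± 0.11, 95% interval -0.17 to 0.31, adjusted p = 0.815). Its coefficient of variation was 5.63% in LKO and 15.4% in female Fl/Fl.

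Cftr, the apical chloride channel that secretin opens, had 0.263, 0.290, 0.401 and 0.237 CPM in LKO, 0.627, 0.231 and 0.222 CPM in female Fl/Fl and 0.200 CPM in the male library. Fl/Fl 5 alone stood apart. The log2 fold change was -0.27 ± 0.47 with it (adjusted p = 0.833) and 0.39 without it (adjusted p = 0.834). Sctr, the secretin receptor, was the member with too few reads to test. It had 18, 3, 2 and 14 reads in LKO, 16, 4 and 8 reads in female Fl/Fl and none in the male library, where 3 reads are worth 0.0428 CPM. The low and the high libraries of Sctr were found in both genotypes. LKO 4, LKO 12 and Fl/Fl 7 were the 3 lowest female libraries for both Sctr and Cldn4, a match noticed after the values were seen.

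Spp1, the secreted phosphoprotein osteopontin, had 40.2, 34.4, 44.9 and 33.4 CPM in LKO, 48.0, 45.8 and 40.9 CPM in female Fl/Fl and 36.5 CPM in the male library. The genotypes overlapped (log2 -0.23 ± 0.12, 95% interval -0.49 to 0.02, adjusted p = 0.359). Anxa13, an annexin that binds membranes, averaged 0.889 ± 0.256 CPM in LKO and 0.840 ± 0.0508 CPM in female Fl/Fl (adjusted p = 0.932).

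Wwc1 encodes KIBRA, a scaffold upstream in the Hippo pathway. It had 128, 101, 77.3 and 102 CPM in LKO, 104, 86.3 and 70.5 CPM in female Fl/Fl and 97.8 CPM in the male library, and the genotypes overlapped (log2 0.23 ± 0.18, adjusted p = 0.574). Without Fl/Fl 5 and 7 the fold change of Wwc1 was 0.53 (adjusted p = 0.4998). Bicc1, an RNA-binding protein whose loss gives cystic kidneys in mice, averaged 4.81 ± 0.493 CPM in LKO and 4.99 ± 0.913 CPM in female Fl/Fl (log2 -0.05 ± 0.16, 95% interval -0.42 to 0.31, adjusted p = 0.913). Dcdc2a, a ciliary doublecortin protein whose human counterpart is mutated in neonatal sclerosing cholangitis, averaged 3.83 ± 0.514 CPM in LKO and 3.80 ± 1.52 CPM in female Fl/Fl (adjusted p = 0.987). Its controls were spread out, with 5.17 CPM for Fl/Fl 5, 4.06 CPM for Fl/Fl 7, 2.17 CPM for Fl/Fl 9 and 2.01 CPM for the male replicate. Its log2 fold change was -0.27 without Fl/Fl 9 (adjusted p = 0.453) and 0.81 without Fl/Fl 5 and 7 (adjusted p = 0.348).

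The male Fl/Fl library stood below all 7 female libraries in 17 of the 28 members, and above all of them in 3, Atp1b1, Cdh1 and Slc4a2. Over all tested genes, 20.3% were lowest and 20.8% highest in that library. The 17 were Aqp1 and 16 of the 20 members in the lower range of levels, among them Krt7, Krt19, Epcam, Cd24a, Prom1, Cftr, Bicc1 and Dcdc2a. Summed, those 20 members stood at 32.1 to 52.2 CPM in LKO, at 39.5 to 43.3 CPM in female Fl/Fl and at 21.1 CPM in the male library. Without Prom1 the sums were 25.4 to 34.9 CPM in LKO, 28.9 to 38.1 CPM in female Fl/Fl and 19.5 CPM in the male library. With 1 male library, sex and that liver cannot be told apart. Marker lists of endothelium and of stellate cells and portal fibroblasts also summed to less there. They came to 683 to 766 and 593 to 704 CPM in LKO, to 672 to 783 and 604 to 638 CPM in female Fl/Fl, and to 495 and 415 CPM in the male library. The list of other biliary genes summed to more in the male library, with 4266 to 4304 CPM in LKO, 4187 to 4531 CPM in female Fl/Fl and 5662 CPM in the male library. So did the secretion list, with 1529 to 1666 CPM in LKO, 1393 to 1493 CPM in female Fl/Fl and 1688 CPM in the male library. The part of these lists in the marker levels was not tested.

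**Figure D4:**
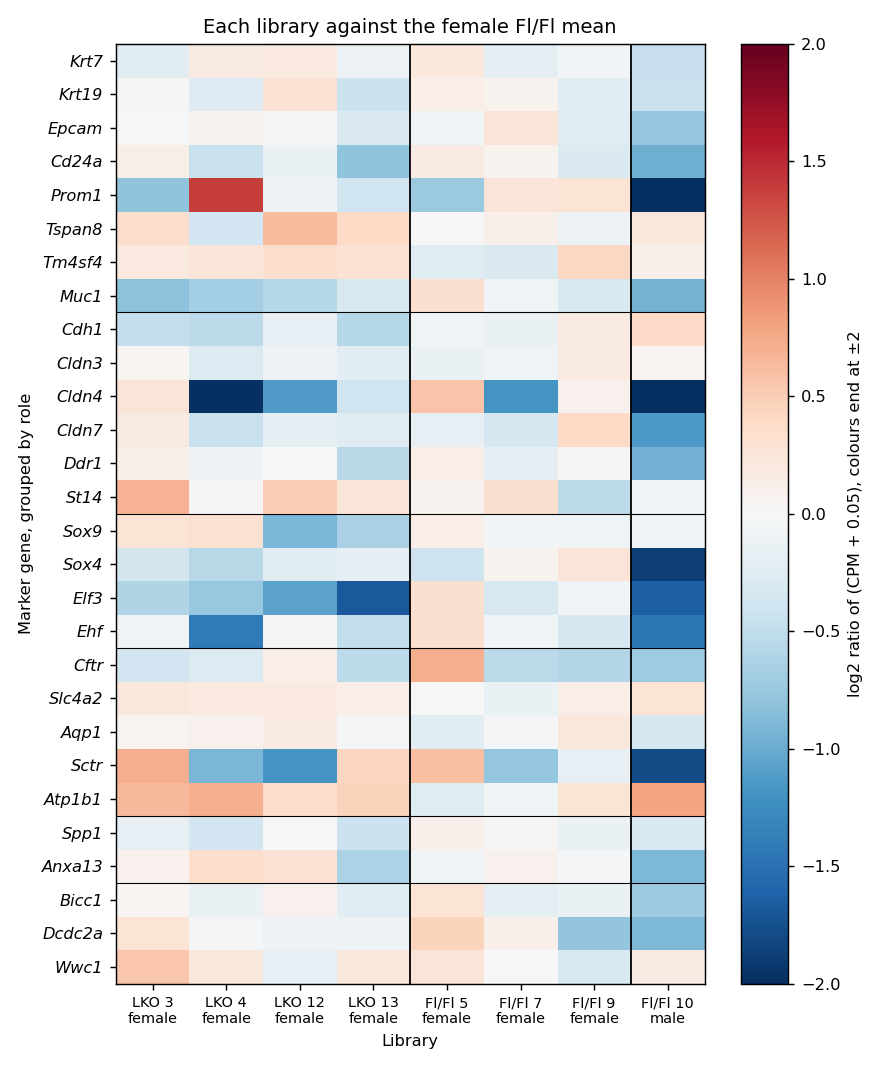
Log2 ratio of each library to the female Fl/Fl mean for the 28 markers, with a constant of 0.05 CPM added, libraries in columns and markers grouped by role. The male column at the right is lowest for 17 of 28 markers, and the 4 LKO and 3 female Fl/Fl columns do not overlap for 5 of them.

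Among the 7 female libraries, LKO 13 held the lowest value of the 28 members 9 times and the highest 0 times. Fl/Fl 5 held the highest value 11 times and the lowest 2 times. No share over all tested genes stands beside these counts, so they do not show whether either library is extreme for the markers in particular. Summed over all 28, the members took 0.0684 to 0.0762% of the reads in LKO, 0.0642 to 0.0765% in female Fl/Fl and, for the male library, 0.0719%. Within the libraries of low and of high Dbp, the fold changes of LKO from female Fl/Fl had the same sign in 12 of 27 members (44.4%), beside 56.4% of all tested genes. The set of high Dbp rests on Fl/Fl 9 as its 1 female control.

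Marker lists of other cells that could supply these transcripts held few calls. None of the tested genes passed edgeR's test among 14 of hepatocytes, 14 of endothelium, 12 of macrophages, 19 of stellate cells or portal fibroblasts, 8 of mesothelium, 12 of B and plasma cells, 7 of neutrophils and 14 of dividing cells. Of 11 tested T and NK cell genes 1 rose, Zap70 (log2 0.73, adjusted p = 0.0270), where 1.02% of all tested genes rose. The other 10 did not pass, and the median log2 of the 11 was -0.10. Zap70 alone averaged 14.5 CPM in LKO, where the whole list summed to 16.5 to 22.6 CPM. Which cells supply the Zap70 reads was not tested. Mesothelium, which also expresses Krt19, summed to 8.61 to 10.97 CPM in LKO, to 7.72 to 12.5 CPM in female Fl/Fl and to 5.95 CPM in the male library. B and plasma cell genes summed to 9.44 to 16.3 CPM in LKO, to 15.5 to 17.0 CPM in female Fl/Fl and to 6.83 CPM in the male library, and their part in the level of Cd24a was not tested. Of 12 genes of exocrine pancreas, 6 were found, and apart from Cela1 and Cela2a they had 2 to 12 reads over all 8 libraries.

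Other biliary epithelial genes did hold calls. Of 60 listed, 52 were tested, of which 2 rose, 2 fell and 48 did not pass, where 1.02% of all tested genes rose and 0.396% fell. Their median log2 was -0.08. This list and the secretion list below were chosen with earlier results of these data known. Counts from them, beside the share over all genes, are therefore a description and not a test of biliary genes. Slc10a2, the bile acid transporter of cholangiocytes, rose (log2 1.18 ± 0.14, adjusted p = 0.00859), and so did Lurap1l, to 78.6 ± 11.4 CPM in LKO, against 51.7 ± 6.04 CPM in female Fl/Fl (adjusted p = 0.0480). The Notch ligand Jag1 fell (log2 -1.13 ± 0.20, adjusted p = 0.0262). Onecut2, a factor of hepatocyte and bile duct development in mice, fell to 75.4 ± 13.5 CPM in LKO, against 121 ± 6.72 CPM in female Fl/Fl (log2 -0.68 ± 0.13, adjusted p = 0.0342). In the male Fl/Fl library Slc10a2, Lurap1l, Jag1 and Onecut2 stood at 71.8, 118, 2.92 and 70.1 CPM, on the LKO side of the female Fl/Fl values. Whether cholangiocytes, hepatocytes or other liver cells supply the reads of these 4 genes was not tested, so the calls are not changes located in cholangiocytes. None of the 4 passed without Fl/Fl 5 or with no sex term, and Jag1 and Onecut2 did not pass without LKO 4, LKO 12 or Fl/Fl 7 either. The count of genes that rose was 1 without LKO 4, LKO 12, LKO 13, Fl/Fl 7 or Fl/Fl 10, and also with limma voom, and the count that fell was 1 without LKO 3 or LKO 13.

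Of 32 genes of biliary ion and bicarbonate secretion, 24 were tested, 4 of them members, and none passed in edgeR's test, with 7 at an unadjusted p under 0.05, where 16.1% of all tested genes were. DESeq2 called 3 higher, where 5.39% of all genes passed in either direction, and limma voom 0. The smallest p-values were those of the calcium-gated potassium channel Kcnn2, at 27.7 ± 2.26 CPM in LKO and 20.5 ± 0.716 CPM in female Fl/Fl (log2 0.43 ± 0.09, adjusted p = 0.0522), and of the intestinal peptide receptor Vipr1, at 53.1 ± 5.22 CPM in LKO and 38.8 ± 4.03 CPM in female Fl/Fl (log2 0.45 ± 0.11, adjusted p = 0.0681). Vipr1 is also on the marker list of stellate cells and portal fibroblasts, and which cells supply its reads was not tested.

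**Figure D5:**
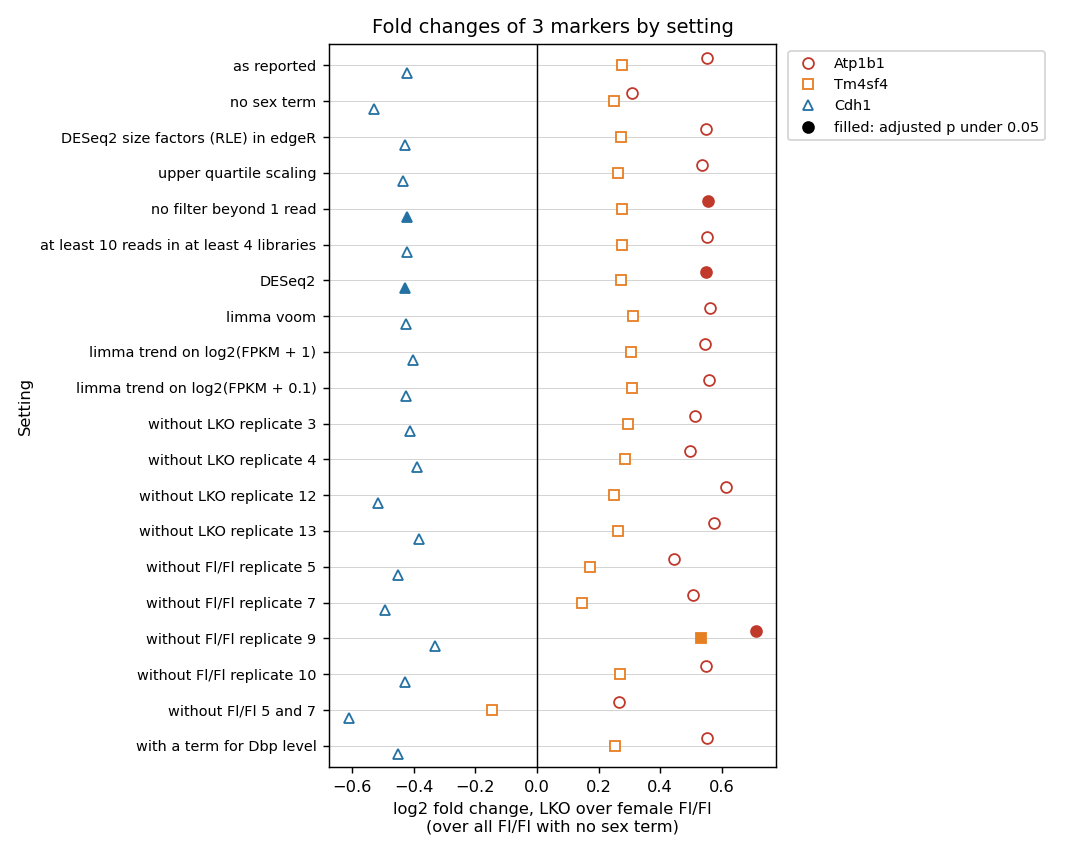
Log2 fold changes of Atp1b1, Tm4sf4 and Cdh1 under each setting, with filled points where the adjusted p was under 0.05. Without Fl/Fl 9 the values of Atp1b1 and Tm4sf4 are 0.71 and 0.53, and without Fl/Fl 5 and 7 they are 0.27 and -0.15.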

How the data were processed

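Per the labels' protocols, total RNA was extracted with an RNeasy kit and made into NEBNext Ultra libraries. Without giving roles, the submitters' processing notes name STAR, featureCounts, HTSeq, fastp, edgeR, DESeq2 and DESeq, with the build mm10. The authors deposited whole-number read counts, a normalised signal equal to each count divided by 1 size factor per library, FPKM values per gene length, and their own log2 fold change with p-value and adjusted p. Strand setting and annotation release are not given in the sources used here.

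Counts were fitted in R 4.3.3 with edgeR 4.0.16 (filterByExpr by genotype, TMM, robust quasi-likelihood test, terms for genotype and sex, 8 libraries, 16420 of 27110 genes), with a threshold of 0.05. Alternatives used DESeq2 1.42.0, limma 3.58.1, other scalings and filters, FPKM, and libraries left out. A term for libraries with Dbp above 20 CPM was added after seeing the data. Standard errors are the fold change over the square root of F. Intervals and the 3-read floor cover counting error or library spread only. No 2 libraries agreed within sampling noise (lowest chi-square per degree of freedom 35.1). The members and lists were chosen with earlier results of these data known. All members are named; the 10 of smallest p and 10 defining duct genes have values per library; from other lists come the genes past the threshold or of smallest p. Chromosome positions are as deposited. The fitting steps were tested on simulated data.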

Additional observations from a re-analysis of the deposited data

Results flagged for a closer look

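Among 56 groups of 4 libraries (28 members in LKO and in Fl/Fl), 3 held a library far from the other 3 by Dixon's gap test, where chance flags about 1 in 20. Sox9 stood at 4.27 CPM in Fl/Fl 5, against 3.65 to 3.73 CPM in the other Fl/Fl libraries, a small difference that counts only because those lie so close together. Cftr stood at 0.627 CPM in Fl/Fl 5, from 47 reads, against 0.200 to 0.231 CPM in the other Fl/Fl libraries. Dcdc2a stood at 4.60 CPM in LKO 3, against 3.51 to 3.69 CPM in the other LKO libraries. Prom1 in LKO 4, at 23.0 CPM, missed the critical value.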

How the results depend on the processing

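No paired analysis was possible because the labels do not say whether litters or days of preparation were shared. The LKO and Fl/Fl libraries share no replicate numbers either. Over 27 members and 19 alternative settings or left-out libraries, 476 of 513 fold changes kept their direction and their side of the threshold, 6 passed it and 31 turned their direction; 14 members never turned. The count of members past the threshold was 0 higher and 0 lower as reported, 1 and 1 with all 27110 genes tested or with DESeq2, and 1 higher at a threshold of 0.10. Leaving out 1 library gave 0 to 2 higher, with 2 without Fl/Fl 9. Over all genes, 167 were higher and 65 lower. The counts were 1 and 0 with no sex term, 320 and 142 with all genes tested, 570 and 315 with DESeq2, 105 and 35 on log2(FPKM + 1), 110 and 34 on log2(FPKM + 0.1), 8 and 18 without Fl/Fl 5 and 7, 254 and 99 with a Dbp term, 357 and 174 at a threshold of 0.10, and 14 and 4 at 0.01. Leaving out 1 library gave 2 to 476 higher and 2 to 251 lower, fewest without Fl/Fl 5 and most without Fl/Fl 9.

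Of other biliary genes, 2 were higher and 2 lower. The higher count was 0 with no sex term and 1 with RLE or upper quartile scaling, limma voom, either FPKM scale, without Fl/Fl 5 and 7, and at 0.01. The lower count was 0 with no sex term, on either FPKM scale and at 0.01, 1 without Fl/Fl 5 and 7, and 4 with DESeq2. Leaving out 1 library gave 0 to 3 higher and 0 to 3 lower. Of the secretion genes, 3 were higher with all genes tested, with DESeq2 or at 0.10, 1 with a Dbp term, and 0 to 4 with 1 library left out. The causes were not tested.

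With no sex term the log2 fold change turned to 0.030 for Krt19, 0.12 for Epcam, 0.056 for Cldn7, 0.073 for Ddr1 and 0.10 for Bicc1. Without Fl/Fl 5 and 7 it turned to 0.16 for Krt19, 0.16 for Epcam, -0.15 for Tm4sf4, 0.41 for Cftr, -0.16 for Aqp1 and 0.079 for Bicc1. There it also moved, with no change of direction, to -0.59 for Cldn7, -0.62 for Sox4, -0.33 for Cldn3, -0.11 for Spp1 and 0.054 for Slc4a2. With upper quartile scaling that of Dcdc2a was -0.0013. With 1 library left out, the range was -0.075 to 0.14 for Krt7, -0.21 to 0.028 for Krt19, -0.15 to 0.10 for Epcam, -0.41 to 0.51 for Prom1, -0.33 to 0.088 for Cldn7, -0.21 to 0.0017 for Ddr1, -0.34 to 0.040 for Sox9, -0.53 to 0.39 for Cftr, -0.028 to 0.19 for Aqp1, -0.032 to 0.26 for Anxa13, -0.14 to 0.11 for Bicc1 and -0.27 to 0.30 for Dcdc2a. Members under about 1 CPM, such as Cftr, Cldn4 and Krt7, rest on few reads per library.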
